A study of Homo sapiens with 24 samples.

Results

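The aryl hydrocarbon receptor (AHR) genes described here were 7: the receptor AHR, its partner ARNT, the repressor AHRR, the target TIPARP and the cytochrome P450 genes CYP1A1, CYP1A2 and CYP1B1. They are 7 of 25992 genes on the array, and every probe that carries one of these symbols as its gene name in the scanner files was taken, which gave 10 of 34127 probes. Of the 23827 probes that were tested, 9 belonged to these genes, and each of the 7 genes was covered by at least 1 of them. The tenth, a second TIPARP probe, was well above background on 0 of 24 arrays and was not tested. Where a gene had more than 1 probe, the brighter was taken as its lead probe. Only AHR and CYP1B1 had a second tested probe. In hg19 the lead probes lie at chr7:17384999-17385058 (AHR, plus strand), chr1:150783044-150783103 (ARNT, minus), chr5:438030-438089 (AHRR, plus), chr3:156424310-156424369 (TIPARP, plus), chr15:75012562-75012621 (CYP1A1, minus), chr15:75048866-75048925 (CYP1A2, plus) and chr2:38295444-38295503 (CYP1B1, minus).

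The arrays profiled the RNA of A549 and H1975, both established human lung adenocarcinoma lines, and nothing in the labels marks them as modified. Cells received 0.75 mg/ml Pirfenidone, an anti-fibrotic drug, or the same volume of PBS, the solvent, for 6 h or 24 h. The 8 groups of line, treatment and time held 3 arrays each, all with 1 color. The labels number the replicates without saying that they came from separate cultures, so the tests measure the spread between these arrays. Levels are log2 signals relative to the 75th percentile of the same array, so that 0 is a bright gene. A difference was called at a limma adjusted p of 0.05 or less together with a log2 difference of at least 1 in size. An array had 62.7% to 69.5% of its probes well above background. The epithelial keratin gene KRT18 was between 6.21 and 7.12 on all arrays, whereas the lung lineage factor NKX2-1 was well above background on 0 of 12 A549 arrays and on 12 of 12 H1975 arrays. Array names share 1 of 4 dates, and arrays of 1 date are called a run below. PBS and Pirfenidone arrays of a line and time came from the same 3 runs.

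AHR is a ligand-activated transcription factor that waits in the cytoplasm with heat shock proteins and other chaperones, enters the nucleus once a ligand is bound and pairs with ARNT there. The pair binds DNA at a short core, GCGTG, and switches on genes of foreign compound metabolism, with CYP1A1 as the textbook readout in airway cells. AHRR and TIPARP are targets that feed back to dampen the receptor. CYP1A2 is the liver enzyme with the main part in breaking down Pirfenidone.

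The upstream DNA of the targets was read from RefSeq promoters of GRCh38.p14, in which 6 of the 7 genes were found and CYP1B1 was not. Those shown were chosen after the levels were seen. CYP1A1 and TIPARP moved together in H1975 (r = 0.93 over its 12 arrays). CYP1A2, near background, is the neighbor of CYP1A1 on chromosome 15. Within H1975 CYP1A1 also correlated with CYP1A2 (r = 0.65), with the CYP1B1 lead probe (0.65), for which no promoter was found, and with AHRR (0.51). A link between cores and levels was not tested. Each run is the 250 bases before a transcription start, 5′ to 3′ on the strand of the gene, with every core, read on either strand, in capitals. For TIPARP and AHRR, which have 3 and 2 listed starts, the first is given.
CYP1A1 (chr15:74725529-74725778, minus strand): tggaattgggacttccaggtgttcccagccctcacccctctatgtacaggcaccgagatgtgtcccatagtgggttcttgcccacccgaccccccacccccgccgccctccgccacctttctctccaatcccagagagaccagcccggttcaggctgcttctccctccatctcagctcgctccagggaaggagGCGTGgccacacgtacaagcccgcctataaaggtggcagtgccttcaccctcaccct
CYP1A2 (chr15:74748595-74748844, plus strand): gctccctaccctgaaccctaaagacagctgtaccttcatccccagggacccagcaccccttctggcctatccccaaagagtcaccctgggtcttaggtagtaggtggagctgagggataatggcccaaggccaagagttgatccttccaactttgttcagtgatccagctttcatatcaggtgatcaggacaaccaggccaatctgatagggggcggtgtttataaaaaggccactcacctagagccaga
TIPARP (chr3:156674340-156674589, plus strand): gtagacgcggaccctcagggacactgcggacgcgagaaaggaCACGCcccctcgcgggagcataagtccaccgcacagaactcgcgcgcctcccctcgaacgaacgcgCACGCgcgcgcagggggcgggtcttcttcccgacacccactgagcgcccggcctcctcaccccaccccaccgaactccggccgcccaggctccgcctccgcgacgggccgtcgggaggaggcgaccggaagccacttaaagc
AHRR (chr5:321464-321713, plus strand): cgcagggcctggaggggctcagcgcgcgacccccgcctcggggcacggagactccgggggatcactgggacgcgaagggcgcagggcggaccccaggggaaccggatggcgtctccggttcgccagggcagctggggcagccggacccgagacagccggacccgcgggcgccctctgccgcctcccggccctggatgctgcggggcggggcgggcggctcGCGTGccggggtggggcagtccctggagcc
CYP1A1 held 1 core, TIPARP 2, AHRR 1 and the CYP1A2 window 0. Of 35116 promoters, 32.2% held at least 1 core and 10.2% at least 2 on either strand. The longer form TNGCGTG, which contains the core, was found in the AHRR window shown and in 4.52% of all promoters. The windows of AHR and ARNT held 0 cores, the other 2 TIPARP windows 0 and the second AHRR window 2. These are matches of letters in a short window and were not tested as binding sites.

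CYP1A1, which oxidizes polycyclic aromatic hydrocarbons, had the largest difference with culture time of the 9 tested probes in H1975 with PBS. In H1975 with PBS its level was -2.67, -1.64 and -1.43 at 6 h and -4.73, -5.01 and -4.86 at 24 h. All 3 arrays at 24 h lay below all 3 at 6 h. The fall was 2.95 on the log2 scale, or 7.75-fold (SE 0.36, n = 3 against 3, limma adjusted p = 4.5e-04). It was seen within each run, at -2.19, -3.09 and -3.58. The fall did not pass when only the 6 arrays were fitted (limma adjusted p = 0.0986), a fit that called 0.00839% of all probes. TIPARP, a mono-ADP-ribosyltransferase that marks the receptor, went the same way. Its level with PBS in H1975 was 2.32, 2.44 and 2.55 at 6 h and 1.26, 1.32 and 1.53 at 24 h, again without overlap. TIPARP fell by 1.07 on the log2 scale, a 2.09-fold difference (SE 0.18, limma adjusted p = 0.00989). It lost the call when only these arrays were fitted (adjusted p = 0.0986), without the third PBS array at 6 h (0.0603) or without the first at 24 h (0.0565).

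With PBS in H1975, 2 of 9 tested member probes were called lower and 0 higher from 6 h to 24 h, against 0.315% of all probes called in either direction and 0.0839% called lower. Of the 9 probes 4 did not overlap between the times, against 18.9% of all probes. Both CYP1B1 probes also sat lower on all 3 arrays at 24 h, each by 1.07 (limma adjusted p = 0.36 and 0.282), and both were called with run as a block (adjusted p = 0.0484 and 0.0418). With that block 1.18% of all probes were called. AHR, ARNT and AHRR overlapped between the times, with log2 differences of 0.37, 0.06 and -0.52. In A549 with PBS 0 of 9 member probes were called, against 0.109% of all probes, and 3 did not overlap, against 15% of all probes. CYP1A1 was -4.02, -3.92 and -3.71 at 6 h and -5.15, -5.02 and -4.40 at 24 h there. All A549 values at 24 h lay below those at 6 h, by 0.97 on average (SE 0.36, limma adjusted p = 0.462). The change with time of CYP1A1 was 1.98 further down in H1975 than in A549, a difference that was not called (SE 0.51, limma adjusted p = 0.553, a contrast chosen after the values were seen), with 0.0252% of all probes called.

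**Figure D1:**
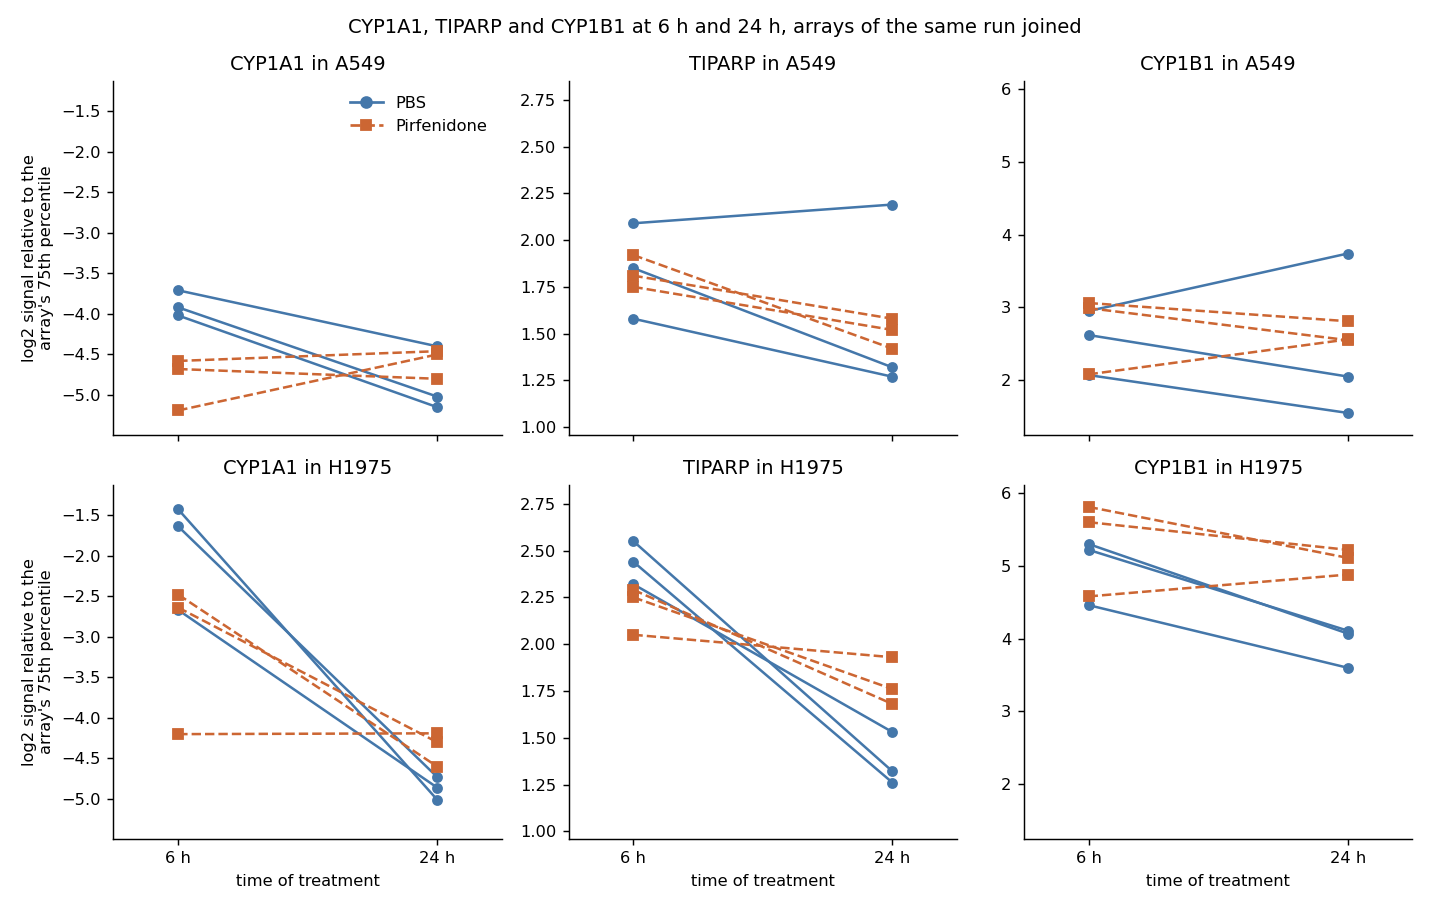
Level of the lead probe (y axis, log2 signal relative to the array's 75th percentile) of CYP1A1, TIPARP and CYP1B1 at 6 h and 24 h in A549 (upper row) and H1975 (lower row). Each line joins the 2 arrays of 1 run (blue circles PBS, orange squares Pirfenidone): the PBS lines of CYP1A1 in H1975 fell by 2.19 to 3.58, whereas each Pirfenidone line began lower and ended higher than the PBS line of its run.

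In each of the 4 drug comparisons 0 of 9 member probes were called in the main fit, which held no block for run. Of all probes 0.176% and 0.0126% were called in A549 at 6 h and 24 h and 0.491% and 1.89% in H1975. With run as a block 1 of 9 was called in H1975 at 6 h and 2 of 9 at 24 h, against 0.949% and 2.95%. At an unadjusted p below 0.05 by limma, 1, 0, 1 and 4 of the 9 member probes passed, against 6.01%, 0.953%, 11% and 22% of all probes. The treatments did not overlap for 1 of 9 member probes in A549 at 6 h and 1 at 24 h, against 15.3% and 1.83% of all probes. In H1975 it was 1 of 9 at 6 h and 5 of 9 at 24 h, against 17.8% and 31.9%. The 5 include both CYP1B1 probes. The mean of the 4 drug differences gave 0 of 9 called, against 0.164% of all probes.

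At 6 h CYP1A1 was lower with Pirfenidone than with PBS in every run of both lines. In A549 it was -4.68, -5.19 and -4.58 with the drug against -4.02, -3.92 and -3.71 with PBS, and the groups did not overlap. In H1975 it was -2.48, -2.64 and -4.20 with the drug against -2.67, -1.64 and -1.43 with PBS, where the PBS array of run 1 fell among the drug arrays. The difference was -0.93 in A549 (SE 0.36, 95% interval -1.69 to -0.18, limma adjusted p = 0.581) and -1.19 in H1975 (SE 0.36, interval -1.95 to -0.44, adjusted p = 0.132). Neither was called. Within runs it was -0.87, -0.66 and -1.28 in A549 and -1.53, -0.84 and -1.20 in H1975. All 6 pairs at 6 h were lower for 12.4% of the probes tested. With run as a block the H1975 difference was called (limma adjusted p = 0.0348, 0.949% of all probes called), as it was with the slide as a block (0.0466, 0.902%).

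A contrast over both lines at 6 h, chosen after these values were seen, gave CYP1A1 a log2 difference of -1.06, 2.09-fold lower with Pirfenidone (SE 0.25, interval -1.60 to -0.53, limma adjusted p = 0.0278). It was called, with 0.306% of all probes, and 8 of the 9 member probes were not. With run as a block its adjusted p was 0.0074 (0.441% called). Leaving out single arrays moved it between -1.25 and -0.79 and kept the call in 18 of 24 cases. It was lost without replicate 2 or 3 of A549 PBS, replicate 2 of A549 Pirfenidone, replicate 2 or 3 of H1975 PBS or replicate 3 of H1975 Pirfenidone, all at 6 h. With normexp background correction the difference was not called (-0.71, limma adjusted p = 0.232), and without the 4 H1975 arrays of run 1 it fell under the fold limit (-0.98, adjusted p = 0.0051). With normexp the median of all probes in the H1975 contrast at 6 h, which is part of the mean, was 0.29, against 0.052 without it. In A549 at 6 h that median was 0 with normexp, and the CYP1A1 difference there was also smaller, at -0.67. The cause of the lost call was not tested. The drug difference of CYP1A1 did not differ between the lines beyond the error at 6 h (-0.26, SE 0.51, interval -1.32 to 0.81, limma adjusted p = 1, 0.0336% of all probes called).

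By 24 h the sign had turned in 5 of 6 run pairs, all but that of A549 in run 1 (-0.07). CYP1A1 in H1975 was -4.60, -4.30 and -4.19 with Pirfenidone against -4.73, -5.01 and -4.86 with PBS, all 3 drug arrays higher, by 0.50 (SE 0.36, limma adjusted p = 0.459). In A549 it was -4.80, -4.50 and -4.46 against -5.15, -5.02 and -4.40, with overlap and a difference of 0.27 (SE 0.36, limma adjusted p = 1). The drug difference at 24 h was thus 1.70 above that at 6 h in H1975 (SE 0.51, interval 0.63 to 2.76, unadjusted p = 0.00356, limma adjusted p = 0.508) and 1.20 above it in A549 (SE 0.51, interval 0.14 to 2.27, adjusted p = 1). Neither change was called, against 0.0042% and 0.0294% of all probes. With Pirfenidone CYP1A1 still fell from 6 h to 24 h in H1975, by 1.26 (SE 0.36, limma adjusted p = 0.0377, 2.38% of all probes called), while in run 1 it stood at -4.20 and -4.19. In A549 with Pirfenidone the times overlapped (0.23, SE 0.36, limma adjusted p = 0.914, 0.256% called).

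TIPARP in H1975 had the same signs as CYP1A1 at both times, at a smaller scale. With Pirfenidone it was 2.29, 2.25 and 2.05 at 6 h, all below the PBS arrays, and 1.68, 1.76 and 1.93 at 24 h, all above them. The differences of -0.24 at 6 h (SE 0.18, limma adjusted p = 0.754) and 0.42 at 24 h (SE 0.18, adjusted p = 0.187) were not called. In A549 TIPARP differed by -0.02 at 6 h and -0.09 at 24 h, with overlapping groups. At 24 h A549 gave -0.77 in run 1, a pair described below for CYP1B1, and 0.24 and 0.26 in runs 2 and 3. After centering each line, CYP1A1 and TIPARP correlated with r = 0.83 over the 24 arrays, which share runs and, in groups, conditions. Among 13039 candidate genes TIPARP was the second most like CYP1A1, after ANKRD13C (0.83) and before PTPRK (0.82), and CYP1A1 was the gene most like TIPARP. Within H1975 alone r was 0.93 over 12 arrays, and within A549 it was 0.53.

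CYP1B1, a P450 of estrogen and hydrocarbon metabolism outside the liver, had the largest drug difference of the 7 genes in H1975 at 24 h. In H1975 its lead probe was 4.07, 4.11 and 3.60 with PBS and 5.11, 5.22 and 4.88 with Pirfenidone at 24 h, so that the lowest drug array lay above the highest PBS array. The difference was 1.14, or 2.21-fold (SE 0.44, interval 0.23 to 2.06, limma adjusted p = 0.127), and 1.14 with the second probe (SE 0.39, adjusted p = 0.0921). It was not called, although the 3 runs gave 1.28, 1.04 and 1.11 for the lead probe. With run as a block both probes were called (limma adjusted p = 0.0187 and 0.0167, 2.95% of all probes called). They were also called when the third A549 pair at 24 h was left out of the common fit (0.0373 and 0.0257). In that pair, from run 1, CYP1B1 was 3.74 with PBS and 2.55 with Pirfenidone, a difference of -1.19, whereas the other A549 pairs gave 0.77 and 1.01. The same pair had the G2/M genes of the cell cycle 1.30 higher with the drug at the median (0 of 54 lower), against -0.20 and -0.69 in the other pairs, and what part this played was not tested. Over all A549 pairs CYP1B1 differed by 0.20 (SE 0.44, limma adjusted p = 1), and without the third pair by 0.89 (SE 0.41, adjusted p = 0.574). The drug difference of CYP1B1 at 24 h was 0.95 larger in H1975 than in A549, a gap that was not called (SE 0.62, limma adjusted p = 0.589, 0.193% of all probes called).

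The H1975 order of CYP1B1 levels put the PBS group at 24 h apart from the other 3. Its mean of 3.93 ± 0.28 (SD, n = 3) lay below 5.00 ± 0.46 for PBS at 6 h, 5.07 ± 0.17 for Pirfenidone at 24 h and 5.33 ± 0.66 for Pirfenidone at 6 h, and those 3 overlapped. At 6 h the drug differences were small, 0.34 in H1975 (SE 0.44) and 0.17 in A549 (SE 0.44), although the lead probe was higher in 6 of 6 run pairs, as were 13.7% of all probes. Genes most like CYP1B1 over the 24 centered arrays were GOLT1B (r = 0.88), TVP23B (0.87) and MAP4K5 (0.84).

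CYP1A2, the enzyme for which Pirfenidone is a substrate, was at the edge of detection. Its probe was well above background on 20 of 24 arrays, and its levels from -7.78 to -5.64 ran into the range of the lowest detected signals, -7.74 to -6.59. At 24 h in H1975 it was -7.00, -7.12 and -7.78 with Pirfenidone, of which 2 were well above background, and -6.36, -6.58 and -6.81 with PBS. All drug arrays were lower, by 0.72 (SE 0.34, limma adjusted p = 0.221), and the difference was not called. In the other 3 drug comparisons CYP1A2 differed by -0.13 to 0.04. These values depended on the background correction. With normexp the H1975 difference was 1.06 at 6 h (SE 0.49, limma adjusted p = 0.147), where the median of all probes was 0.29. At 24 h it was -0.28 (SE 0.49). Neither was called.

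The receptor itself did not pass with the drug. AHR in H1975 at 24 h was 2.49, 2.78 and 1.55 with PBS and 2.88, 2.83 and 2.14 with Pirfenidone, with overlap (0.34, SE 0.36, limma adjusted p = 0.653). In A549 it differed by -0.06 at 6 h and -0.03 at 24 h. The second AHR probe gave differences with overlap in all 4 comparisons as well. In H1975 both AHR probes were higher with the drug in 6 of 6 run pairs over the times, the lead probe by 0.04 to 0.59, as were 19.9% of all probes. ARNT was also higher in 6 of 6, by 0.03 to 0.38, and its group differences of 0.27 and 0.25 (SE 0.13, limma adjusted p = 0.495 and 0.294) had intervals from -0.02 to 0.55 and -0.03 to 0.53, below a 2-fold change. AHRR differed by -0.16 at 6 h and 0.49 at 24 h in H1975 and by 0.14 and 0.12 in A549, all with SE 0.44 and overlapping groups.

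**Figure D2:**
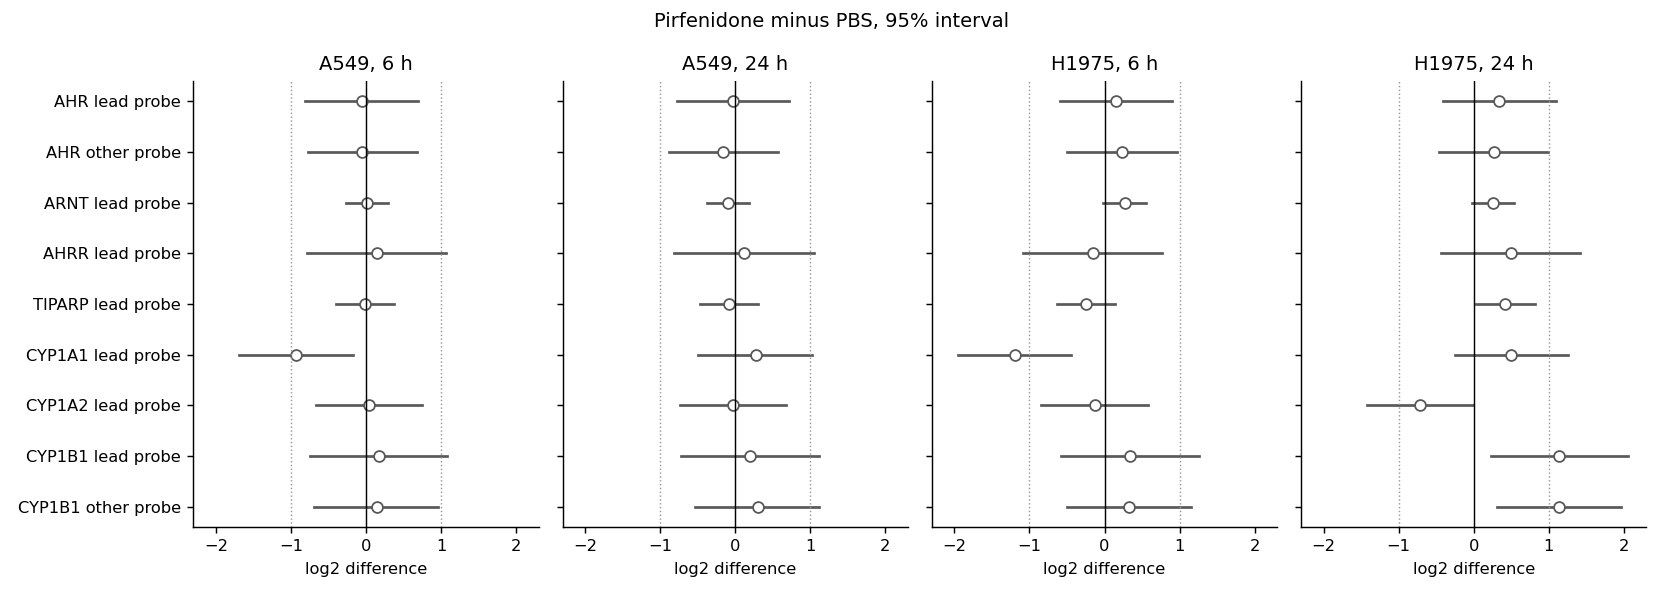
Pirfenidone minus PBS for the 9 tested member probes (rows) in each line and time (panels), as log2 differences with 95% intervals from limma on 3 against 3 arrays; dotted lines mark a 2-fold change and open circles differences that were not called. CYP1A1 lay furthest to the left at 6 h (-0.93 in A549, -1.19 in H1975) and both CYP1B1 probes furthest to the right in H1975 at 24 h (1.14).

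More member probes, and more of all probes, were called between the lines than between the treatments. This did not hold gene by gene. At 24 h CYP1A1, CYP1A2, ARNT and TIPARP differed less between the lines with PBS than with the drug in H1975. At 6 h with PBS 6 of 9 member probes were called higher and 0 lower in H1975, against 32.4% of all probes called in either direction. At 24 h it was 5 of 9, against 32.9%. AHR and CYP1B1 enter these counts with both of their tested probes. With the probes of each gene averaged, 3 members were called at 24 h, against 32.9% of all genes. The lines did not overlap for 7 of 9 at 6 h and 4 of 9 at 24 h, against 66.3% and 63.7% of all probes. AHR was -0.27 to 0.42 on the A549 arrays and 1.32 to 2.21 on the H1975 arrays at 6 h, 3.39-fold higher in H1975 (1.76, SE 0.36, limma adjusted p = 3.1e-04), and 3.62-fold higher at 24 h (1.86, adjusted p = 1.8e-04). The order of the 8 AHR groups put all 4 of H1975 (means 1.91 to 2.62) above all 4 of A549 (0.08 to 0.42), and neighbors within a line overlapped. The second AHR probe gave 1.90 and 2.10.

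CYP1B1 was 5.47-fold higher in H1975 at 6 h (2.45, SE 0.44, limma adjusted p = 8.5e-05) and 2.80-fold at 24 h (1.48, SE 0.44, adjusted p = 0.00685). At 24 h its groups overlapped, because the third A549 array reached 3.74, and the lead probe was not called without the second A549 array (1.03, adjusted p = 0.0559) or when only these 6 arrays were fitted (0.0577). The second CYP1B1 probe gave 2.64 and 1.66. AHRR, at -4.40 to -3.94 in A549 and -3.32 to -1.72 in H1975 at 6 h, was 3.64-fold higher in H1975 (1.86, SE 0.44, limma adjusted p = 0.00135). It was 2.89-fold higher at 24 h (1.53, adjusted p = 0.00606), where the call was lost under normexp background correction (1.03, adjusted p = 0.0627). CYP1A1 was 3.92-fold higher in H1975 at 6 h (1.97, SE 0.36, limma adjusted p = 1.1e-04) and differed by -0.01 between the lines at 24 h (SE 0.36, interval -0.77 to 0.74). ARNT differed by 0.06 and 0.01 between the lines, with signs that changed under other settings, and CYP1A2 by -0.19 and 0.07. TIPARP was higher in H1975 at 6 h by 0.59 (limma adjusted p = 0.00974), under the fold limit.

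The size of the line difference was uneven between runs. Runs 1 and 3 hold arrays of both lines, but each slide held a single line, so line and slide cannot be told apart. At 6 h with PBS AHR was 1.03 higher in H1975 in run 1 and 2.48 higher in run 3. At 24 h the pairs gave 0.53 and 2.48. AHRR was 0.63 and 2.50 higher in H1975 at 6 h and 0.41 and 2.47 at 24 h. CYP1A1 was 1.04 and 2.28 higher at 6 h. CYP1B1 was 1.52 and 3.24 higher at 6 h, and its differences at 24 h were -0.14 and 2.53. The -0.14 rests on the third A549 PBS array at 24 h, where CYP1B1 was 3.74. With Pirfenidone at 24 h runs 1 and 3 gave 2.33 and 2.55 for CYP1B1, 1.49 and 1.85 for AHRR and 1.52 and 2.63 for AHR. In each of the 4 H1975 groups the run 1 array was the lowest of the 3 for AHR, AHRR and CYP1B1. Without the 4 H1975 arrays of run 1, a setting chosen after the values were seen, AHRR was 2.37 higher in H1975 at 6 h, CYP1A1 2.35 and CYP1B1 2.72, all called, and CYP1A1 fell by 3.34 with time. The drug difference of CYP1A1 in H1975 at 6 h was then -1.02 (SE 0.24, limma adjusted p = 0.0825), and that of CYP1B1 at 24 h 1.08 (SE 0.51, adjusted p = 0.356).

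The order of the CYP1A1 levels began with the H1975 PBS group at 6 h (mean -1.91 ± 0.66, SD, n = 3), the H1975 Pirfenidone group at 6 h (-3.11 ± 0.95) and the A549 PBS group at 6 h (-3.88 ± 0.16), in this order, each overlapping its neighbor. The other 5 groups followed, from -4.36 to -4.87, and overlapped one another as neighbors, while the highest of them did not overlap A549 PBS at 6 h. For TIPARP H1975 PBS at 6 h was highest (2.44 ± 0.11) and did not overlap the next group, and the 7 others overlapped as neighbors. CYP1A2 was lowest in H1975 with Pirfenidone at 24 h (-7.30 ± 0.42), without overlap with its neighbor. The genes most like AHR over the 24 centered arrays were SEMA3A (r = 0.94), TMEM230 (0.94) and BCKDHB (0.93), and those most like AHRR were UBE4A (0.91), ZNF791 (0.90) and EVI5 (0.89). For ARNT they were TK2 (0.83), RHOU (0.80) and SLC5A10 (0.80). For CYP1A2, whose probe was near background, they were RBM39 (0.93), EMC3-AS1 (0.92) and HECTD2 (0.91).

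With Pirfenidone the line differences were of the same order. At 6 h 6 member probes were called higher in H1975 (32.6% of all probes called) and at 24 h 5 (35% called). CYP1B1 was 2.62 higher at 6 h and 2.43 at 24 h, AHR 1.98 and 2.23, and AHRR 1.56 and 1.90. CYP1A1 was 1.71 higher at 6 h (SE 0.36, limma adjusted p = 4.4e-04) and 0.22 higher at 24 h (SE 0.36, adjusted p = 0.606). In RNA of a whole culture, fewer cells that express a gene and less RNA per cell cannot be told apart.

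**Figure D3:**
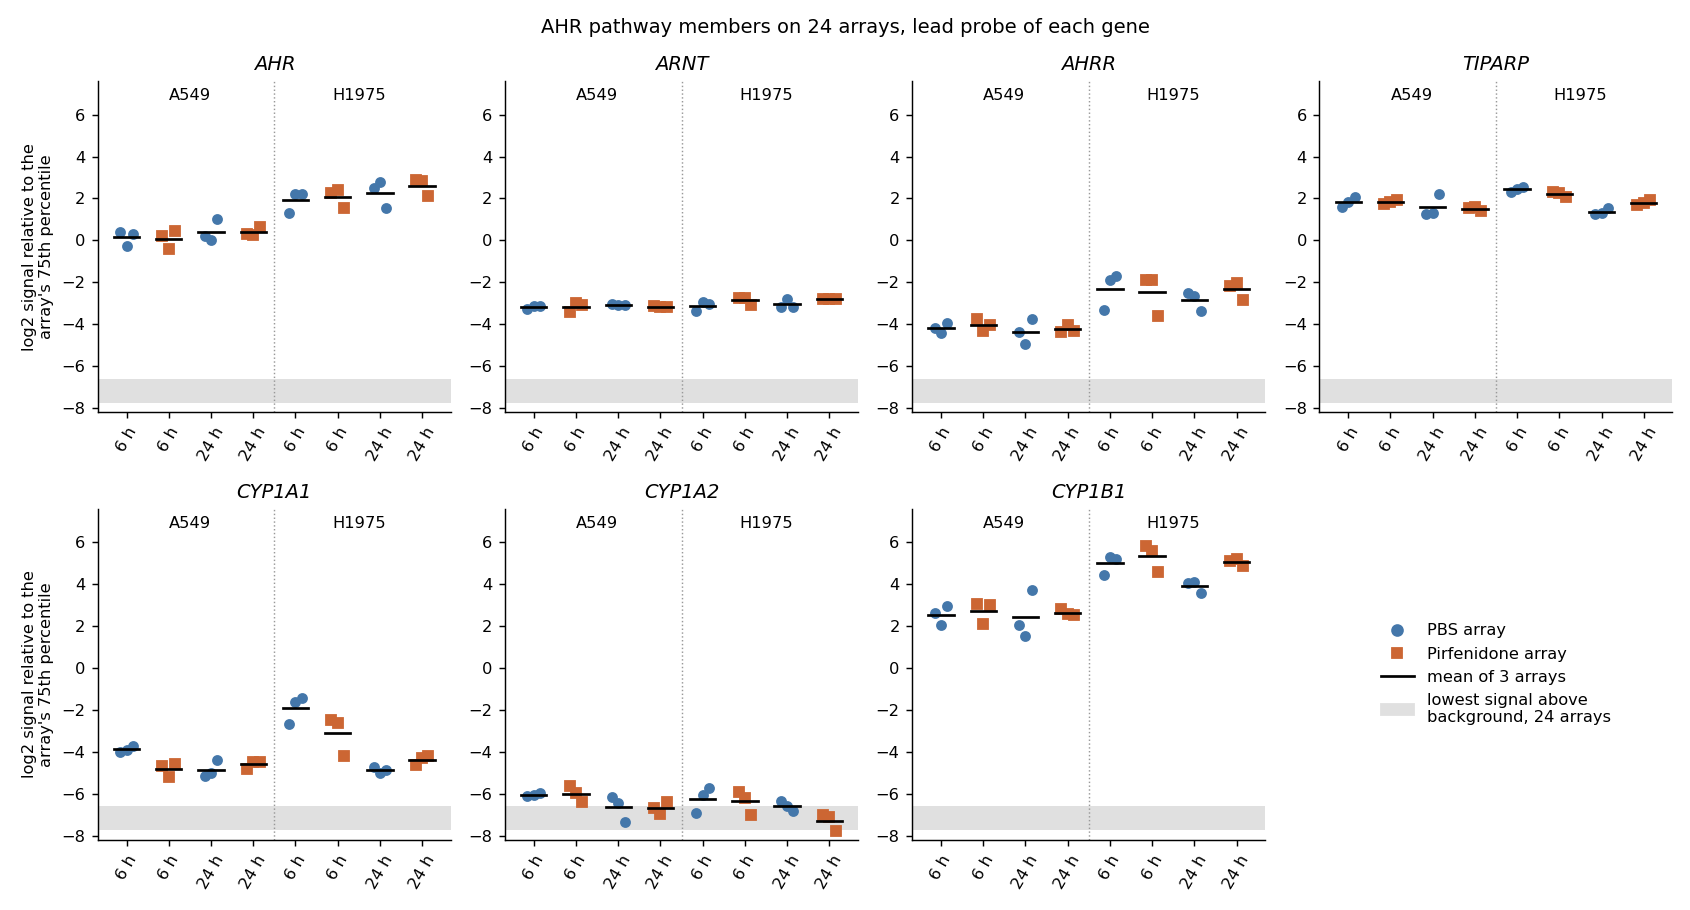
Level of the lead probe of each of the 7 genes (y axis, log2 signal relative to the array's 75th percentile) on all 24 arrays, in 8 groups along the x axis (points arrays, bars means of 3, gray band the range of the lowest signals above background). AHR, AHRR and CYP1B1 stood higher in all H1975 groups, ARNT lay between -3.42 and -2.73, CYP1A2 reached into the gray band, and CYP1A1 peaked at -1.91 in H1975 with PBS at 6 h.

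**Figure D4:**
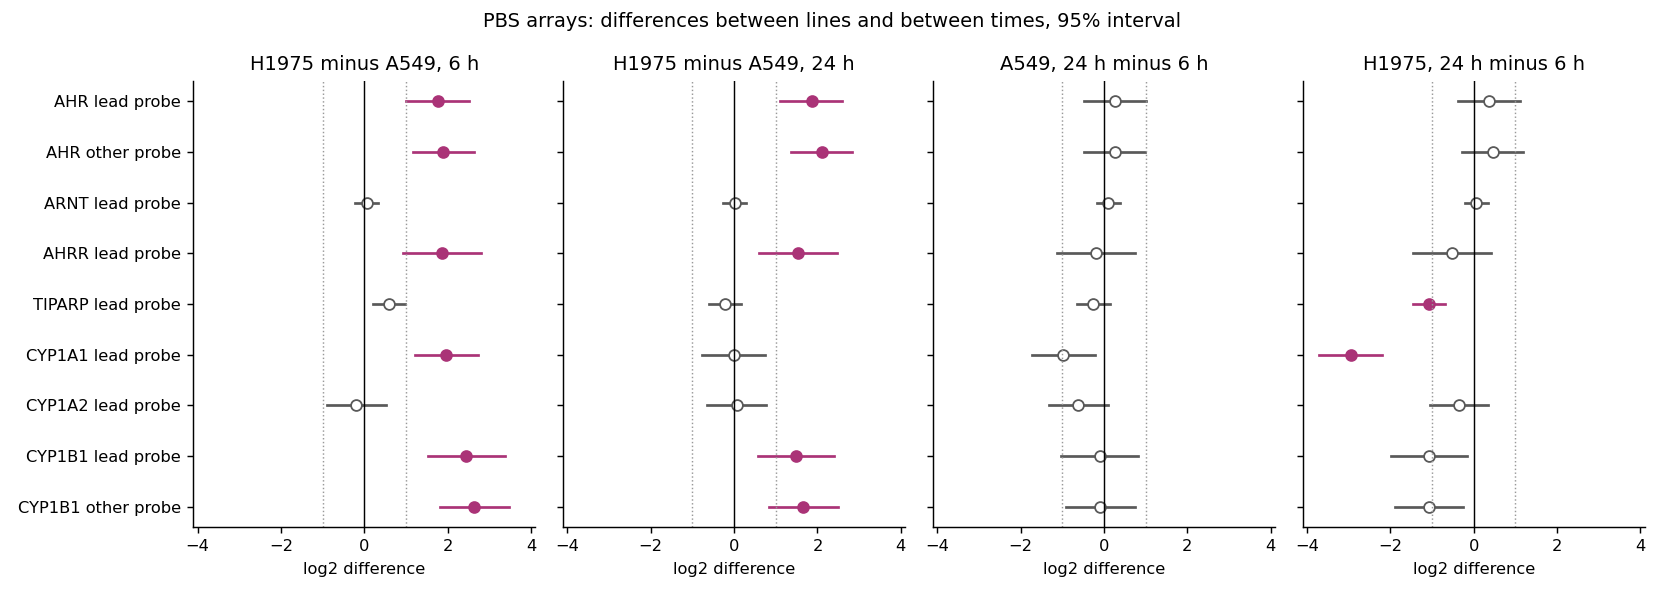
Differences among the PBS arrays for the 9 tested member probes (rows): H1975 minus A549 at 6 h and 24 h, and 24 h minus 6 h in each line, as log2 differences with 95% intervals from limma on 3 against 3 arrays; filled points were called. CYP1A1 in H1975 fell by 2.95 with time, and AHR, AHRR and CYP1B1 were 1.48 to 2.64 higher in H1975 at both times.

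A wider list of 51 genes around the receptor was taken for comparison, 45 of them with a tested probe. It held chaperones, partners, coactivators, other targets, kynurenine enzymes that make or break down endogenous ligands, and P450 partners such as electron donors. Other P450 enzymes of Pirfenidone and other xenobiotic receptors were also on it. In A549 0 of 45 were called at either time with the drug (15 and 25 with a positive difference), where 0.176% and 0.0126% of all probes were called. In H1975 0 rose and 1 fell at 6 h, and 2 rose and 0 fell at 24 h, where 0.491% and 1.89% of all probes were called. All 3 belonged to the 14 tested genes listed as other targets. The medians over the 45 genes were -0.06 and 0.03 in A549 and 0.08 and 0.07 in H1975, where those of all probes were -0.012, -0.024, 0.052 and 0.023.

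The gene that fell was SERPINB2, which encodes an inhibitor of plasminogen activators. It was -2.45, -1.95 and -1.94 with PBS and -3.25, -3.17 and -3.81 with Pirfenidone at 6 h in H1975, without overlap (-1.30, SE 0.29, limma adjusted p = 0.0316). SERPINB2 was well above background on 0 of 12 A549 arrays, and its H1975 level also fell with time in PBS, by 1.59 (SE 0.29, limma adjusted p = 0.015). NEDD9, a scaffold protein of focal adhesions, was -3.26, -3.27 and -3.45 with PBS and -2.35, -2.18 and -1.87 with Pirfenidone at 24 h, without overlap (1.19, SE 0.20, limma adjusted p = 0.00311). STC2, a secreted glycoprotein also known to rise in the unfolded protein response, was -2.43, -2.07 and -2.92 with PBS and -1.48, -1.22 and -0.86 with Pirfenidone at 24 h (1.29, SE 0.27, limma adjusted p = 0.0107). In A549 STC2 was -3.23, -3.41 and -3.63 with PBS and -2.46, -2.15 and -2.00 with Pirfenidone at 6 h, without overlap but not called (1.22, SE 0.27, limma adjusted p = 0.0614), and called with run as a block (0.0209, 0.323% of all probes called). The kynurenine enzymes, P450 partners, chaperones and coactivators had 0 calls in the 4 drug comparisons.

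**Figure D5:**
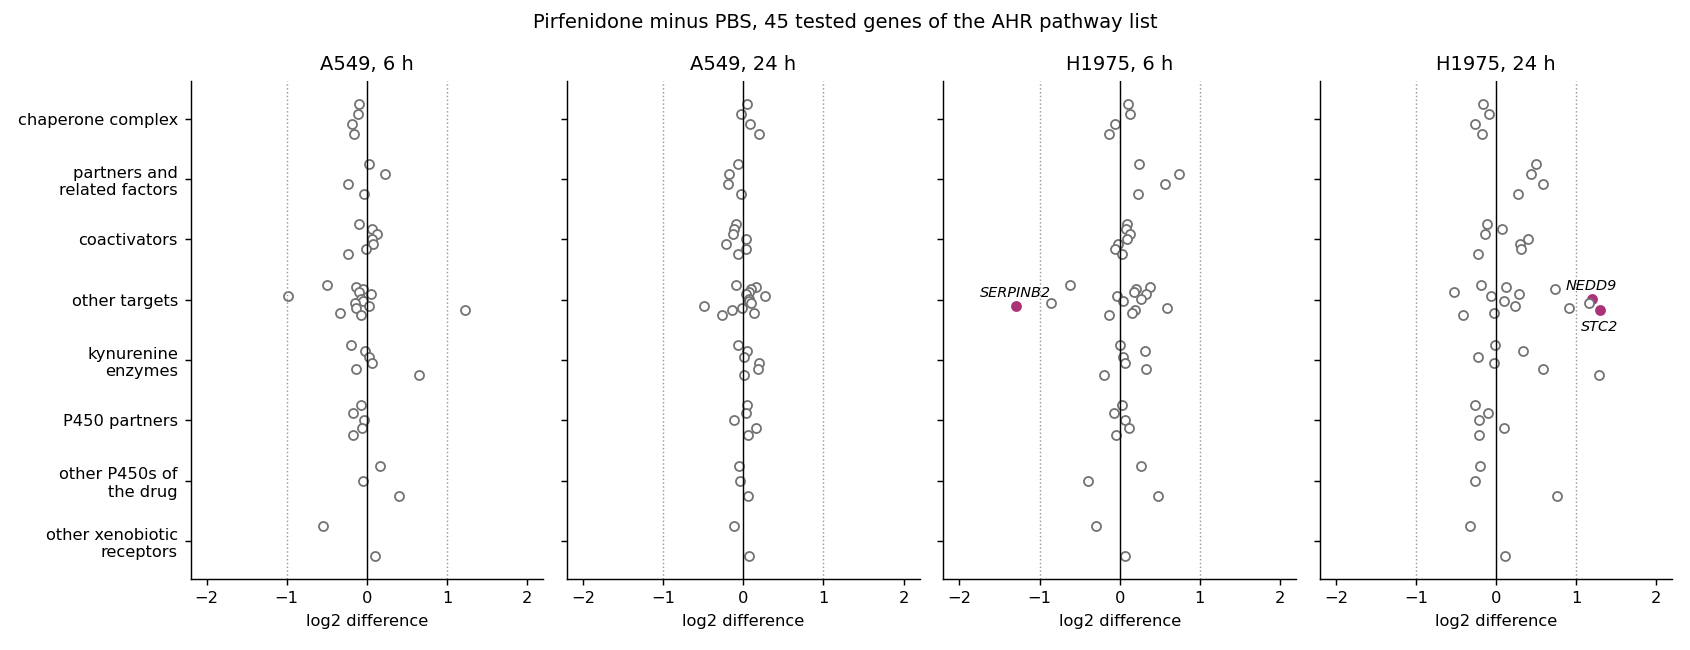
Pirfenidone minus PBS (x axis, log2 difference) for the 45 tested genes of the wider list in each line and time, with 1 point a gene in rows by role and dotted lines at a 2-fold change. Filled points were called: SERPINB2 at -1.30 in H1975 at 6 h, and NEDD9 at 1.19 and STC2 at 1.29 in H1975 at 24 h.

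Between the lines 26 of the 45 genes were called at 6 h with PBS (8 higher and 18 lower in H1975) and 25 at 24 h (8 and 17), where 32.4% and 32.9% of all probes were called. Of the 14 tested genes listed as other targets, 3 were called higher and 9 lower in H1975 at 6 h. At 6 h the log2 difference, H1975 minus A549, was -11.92 for the aldehyde dehydrogenase ALDH3A1 (limma adjusted p = 1.3e-16), -2.57 for the quinone reductase NQO1 (adjusted p = 1.5e-13) and -4.09 for the P450 gene CYP2S1 (adjusted p = 7.6e-13). None of these 3 genes was called with the drug in either line. The chromatin remodeler SMARCA4 was 4.90 higher in H1975 (limma adjusted p = 1.5e-14). The kynurenine-degrading enzyme KYNU differed by -4.16 (limma adjusted p = 6.8e-12). From 6 h to 24 h with PBS in H1975, ALDH1A3 fell by 1.28 (SE 0.26, limma adjusted p = 0.0239) beside SERPINB2, 2 of 45 genes, and in A549 0 of 45 were called, against 0.315% and 0.109% of all probes.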

How the data were processed

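Total RNA was labeled with Cy3 and hybridized to 1-color Agilent arrays, 24 in all, and scanned with Feature Extraction 11.5.1.1 per the file headers. The scanner files deposited by the authors hold processed signal intensity, background-subtracted by that software. The deposited table of processed values is on a log2 scale, with columns whose medians ran from -0.162 to 0.155 and probes centered on their median (largest probe median 5e-04), which matched the scanner values (r = 0.9996) and served as an alternative. The genome build of the probe positions was hg19, and no annotation of that build was used here.

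From the scanner files, log2 processed signal minus the 75th percentile over 43118 non-control spots of the array was taken, outlier spots were dropped, and spots of a probe were averaged to 34127 probes. A probe was tested where 1 or more of the 8 groups had it well above background on its 3 arrays, and the resulting 23827 were fitted with limma 3.58.1 in R 4.3.3 (lmFit, eBayes, 16 residual degrees of freedom) and adjusted by Benjamini-Hochberg over all of them. The fold limit of 2 follows the study's methods. The script was tested on simulated data. No probe was saturated on any array (0 of 24 arrays). Precision is limited by 3 arrays a group. G2/M genes were those of Seurat 5.3.0.

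The members, lists and comparisons were chosen with earlier results of these data known, so none of them is independent evidence. All member genes were described whatever their values, genes of the wider list were named where called in a drug comparison, and ALDH3A1, NQO1, CYP2S1, SMARCA4, KYNU and ALDH1A3 were named after their values were seen. Likeness was Pearson's r of probes detected on all arrays, after each line was centered. Contrasts over both lines at 1 time, and between lines over time, were added after the values were seen. Promoters came from RefSeq.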

Additional observations from a re-analysis of the deposited data

How the results depend on the processing

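No called member difference changed sign under any alternative. With run as a block, 1 member probe was called with the drug in H1975 at 6 h and 2 at 24 h. Over time in H1975 with PBS 4 were called. Among the wider list A549 at 6 h gave 1 gene and H1975 at 24 h gave 4. The drug difference gave 2 list genes between lines at 24 h and 1 between times in H1975. That block called 0.323% of all probes in A549 at 6 h, and 0.949% and 2.95% in H1975 at 6 h and 24 h. Over time in H1975 it called 1.18%. For the drug difference it called 1.67% between lines at 24 h and 0.189% between times in H1975. The slide as a block gave 1 member probe in H1975 at 6 h (0.902% of all probes called). List genes numbered 1 for A549 at 6 h (0.256%), 4 for H1975 at 24 h (2.34%) and 1 between lines at 24 h (0.734%). In H1975 the methods' t-test on run pairs, unadjusted, gave 1 member probe at 6 h and 2 at 24 h. Of all probes 0.902% and 2.2% were called there. The test gave 1 list gene in A549 at 6 h, with 0.353% of all probes called. After Benjamini-Hochberg it called 0 of all probes in the 4 drug comparisons. Its 0 member probes and 0 list genes in H1975 therefore say nothing about these genes. Holm adjustment left 1 member probe between lines at 6 h, 0 at 24 h and 1 over time in H1975, and 0 list genes with the drug or over time. Of all probes it left 20.1% and 20.3% between lines, 0.0713% over time in H1975 and 0.0126% to 0.138% with the drug. Fitting only the arrays compared left 0 member probes and 0 list genes over time in H1975, where it called 0.00839% of all probes. With the drug in H1975 it left 0 list genes at 6 h and 1 at 24 h, with 0.0168% and 0.6% of all probes called. Averaging the probes of each gene gave 3 members between lines at 24 h and 1 list gene in H1975 at 24 h. Of all genes 32.9% and 1.92% were called there. Normexp left 0 list genes in H1975 at 6 h and 0 over time, where it called 0.495% and 0.0336% of all probes. The stricter filter, probes well above background on all arrays, left 0 in H1975 at 6 h, 1 over time and 1 in A549 at 6 h. It called 0.355%, 0.212% and 0.201% of the probes it kept. SERPINB2, well above background on 12 of 24 arrays, was not tested under that filter. Without a fold limit 2 list genes passed in H1975 at 6 h, 4 at 24 h and 4 in the mean of the 4. Of all probes 1.41%, 6.26% and 5.09% passed there. Without both A549 arrays of the third pair at 24 h, 2 member probes passed in H1975 at 24 h and 1 list gene in A549 at 6 h. The shares of all probes called were 2.38% and 0.269%. Without the 4 H1975 arrays of run 1, 0 list genes passed in H1975 at either time and 1 in A549 at 6 h. That setting called 0.386% and 0.604% of all probes in H1975 at 6 h and 24 h and 0.201% in A549 at 6 h. Leaving out single arrays gave 0 to 2 member probes with the drug in H1975 at 24 h and 0 in the other drug comparisons, 6 between lines at 6 h, 4 to 5 at 24 h and 1 to 2 over time in H1975; list genes ran from 0 to 1 for A549 at 6 h. For H1975 they ran from 0 to 1 at 6 h, 1 to 3 at 24 h, 0 to 3 over time in H1975 and 0 to 1 between lines at 24 h. Apart from SERPINB2 under the stricter filter, the cause of these changes was not tested.

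Replicates with 1 number in both treatments shared a run in A549 and in H1975 at 24 h, but not in H1975 at 6 h. Deviations of same-numbered arrays correlated at 0.58 to 0.70 in A549 at 6 h, -0.10 to 0.39 in A549 at 24 h, -0.68 to 0.43 in H1975 at 6 h and 0.46 to 0.72 in H1975 at 24 h, so the numbers were not taken as pairs. By run, the H1975 pairs at 6 h correlated at 0.50 to 0.82. The main fit held no block for run all the same, and run as a block was fitted as an alternative. The replicate block changed no member count and gave 1 list gene (NEDD9) in the difference between lines at 24 h. Over time in H1975 it gave 3 list genes in place of 2, with PTGS2 added (-2.66, limma adjusted p = 0.0204). Of all probes 0.395% and 0.621% were called in these 2 comparisons. Westfall-Young adjustment, which the study's methods name, was not run, since 3 arrays against 3 cannot pass it. Dim signals limit CYP1A2 and, in part, CYP1A1.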
